A study of Mus musculus with 8 samples.

Results

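The NRF2 antioxidant response was described through 10 genes: the transcription factor Nfe2l2, its adaptor Keap1, and 8 enzymes or transporters of the textbook target set (Hmox1, Nqo1, Gclm, Gclc, Slc7a11, Txnrd1, Srxn1 and Prdx1). They were taken from the 49315 gene rows of the count table by matching each Ensembl identifier to its symbol in GENCODE M21, and all 10 were among the 13051 genes with enough counts to be tested. The RNA came from bone marrow-derived macrophages (BMDMs) of C57BL/6 mice, grown with 10 ng/ml of the macrophage growth factor mMCSF. Cells were transfected by Lipofectamine 3000 with 25 nM of a gapmeR, an antisense oligonucleotide that directs RNase H to cut its target RNA, either against the macrophage lncRNA MAARS (4 libraries, replicates 9, 11, 13 and 15) or a negative control (4 libraries, replicates 2, 5, 6 and 7). All 8 libraries shared strain, culture and transfection, the labels name no further treatment and no time after transfection, and loss of MAARS and other effects of the MAARS gapmeR cannot be told apart in this design. The dose is the one in the labels, whereas the study's methods write 25 nmol. The study designed several MAARS gapmeRs and chose a single sequence for further work. It does not say which was used for these libraries. The labels do not say whether replicates were separate cultures or animals, so p-values measure the spread between these samples, which may be technical.

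NRF2, the protein of Nfe2l2, is held at a low level in resting cells because KEAP1 binds it and brings it to a CUL3 ubiquitin ligase for destruction. Oxidants and electrophiles modify KEAP1, NRF2 then accumulates, pairs with a small MAF protein and binds antioxidant response elements, sites for which the repressor BACH1 competes. In macrophages the targets make glutathione and thioredoxin, supply them with electrons, break down haem and store the iron released. Because NRF2 is set mainly by protein turnover, its mRNA level is no measure of its activity.

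The core of the antioxidant response element, TGACNNNGC on either strand, was sought in RefSeq promoter windows of 300 bases (250 before the annotated start and 50 after it, GRCm38.p6). Windows were found for 8 members (10 windows, since Txnrd1 has several starts), and Hmox1 and Gclc had none in the table. The core was present in 5 of these 10 windows, each of a different member, whereas 12.4% of all 32851 windows held it. Most members were picked as textbook targets, so this difference is no test of enrichment. These 5 matches are shown because the core holds the letters NRF2 is known to read, and they are the copies found in the members' windows. Each is written 5′ to 3′ on the gene's own strand with the core in capitals, and GC followed by NNNGTCA is the same core read on the opposite strand.
Nfe2l2, minus strand, chr2:75704855-75704913: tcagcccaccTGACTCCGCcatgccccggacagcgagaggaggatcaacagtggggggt
Gclm, plus strand, chr3:122245383-122245471: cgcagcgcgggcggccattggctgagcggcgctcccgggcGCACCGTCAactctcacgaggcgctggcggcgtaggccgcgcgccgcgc
Prdx1, plus strand, chr4:116685426-116685514: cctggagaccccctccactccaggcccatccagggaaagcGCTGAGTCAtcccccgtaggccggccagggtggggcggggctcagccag
Txnrd1, plus strand, chr10:82859074-82859162: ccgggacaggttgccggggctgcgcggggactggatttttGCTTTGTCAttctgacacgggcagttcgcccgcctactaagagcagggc
Srxn1, plus strand, chr2:152105542-152105570: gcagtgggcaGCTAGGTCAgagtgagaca
The core began 240 bases before the start of Nfe2l2 (position -240), at position -134 in Gclm, -133 in Prdx1 and -92 in Txnrd1, and at position 29 after the start of Srxn1. The letters were not in the windows of Keap1, Nqo1 and Slc7a11, nor in the other windows of Txnrd1. Sequence outside the 300 bases of a window was not searched, so these genes are not shown to lack the element. With a final A added (TGACNNNGCA, a subset of the same matches), 1 of the 10 member windows and 3.04% of all windows held the motif. A match is a description of these letters and not a mapped binding site.

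Libraries held between 19287279 and 24541205 counts, and every MAARS gapmeR library held more than every control library. MAARS itself (ENSMUSG00000054510, chr2:78237547-78302230) stood at 12.2, 15.1, 12.98 and 12.2 CPM (counts scaled to the size of the library by TMM factors) in control replicates 2, 5, 6 and 7, and at 7.71, 6.41, 7.31 and 5.85 CPM in MAARS replicates 9, 11, 13 and 15. The groups did not overlap and MAARS fell by 48.1% (edgeR's quasi-likelihood test, adjusted p = 5.8e-05). The 8 macrophage markers summed to between 13836 and 17118 CPM in control libraries and between 17011 and 20241 CPM in MAARS libraries, with 5 markers higher and 2 lower. Markers of other cells were at low levels beside this, with the 7 stromal markers the highest (460 to 1047 CPM against 720 to 1237 CPM, none called). The 6 T cell markers summed to 66.0 to 85.7 CPM in control and 40.7 to 51.6 CPM in MAARS libraries, with 1 marker tested and lower and Cd3g at 0. The 4 B cell markers with any count summed to 1.84 to 3.93 CPM in control and 6.25 to 22.8 CPM in MAARS libraries, without overlap, with 1 of 2 tested markers higher. The 4 endothelial markers summed to 16.1 to 20.5 against 6.25 to 7.66 CPM, with 1 of 2 tested markers lower. The 8 neutrophil markers summed to 84.9 to 245 against 89.0 to 141 CPM, with none called. Megakaryocyte markers summed to 1.41 to 4.86 against 3.22 to 4.42 CPM, with 1 of 2 tested markers higher. Markers of NK cells (Gzma at 0), dendritic cells, mast cells or basophils and erythroid cells summed to at most 2.54 CPM in any library, with none called among the 2 tested. The part of these markers in the results for the NRF2 genes was not tested.

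After MAARS knockdown, 4 of the 10 NRF2 genes were higher (Nqo1, Gclm, Srxn1 and Prdx1), 1 was lower (Keap1), and 5 did not pass the test (Nfe2l2, Hmox1, Gclc, Slc7a11 and Txnrd1). The threshold was an adjusted p of 0.05, with adjustment over the whole table of 13051 genes, and by it 45.4% of all genes were called, 21.3% higher and 24.0% lower. With 5 of 10 members called, the set stood near the background of all genes. The groups did not overlap for 4 members, 3 with all MAARS libraries above and 1 with all below, against 42.1% of all genes. No member reached an absolute log2 fold change of 1.5, which 2.20% of all genes passed with an adjusted p under 0.05. The median log2 fold change of the members was 0.09, beside 0.01 over all genes tested, and the median absolute log2 fold change of all genes was 0.23. Of all called genes, 47.0% were higher, and with upper-quartile factors, which moved the median of all genes by 0.06, 60.36% were. In bulk RNA, a lower value can come from fewer cells of a type or from less RNA per cell, and these cannot be told apart here.

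**Figure D1:**
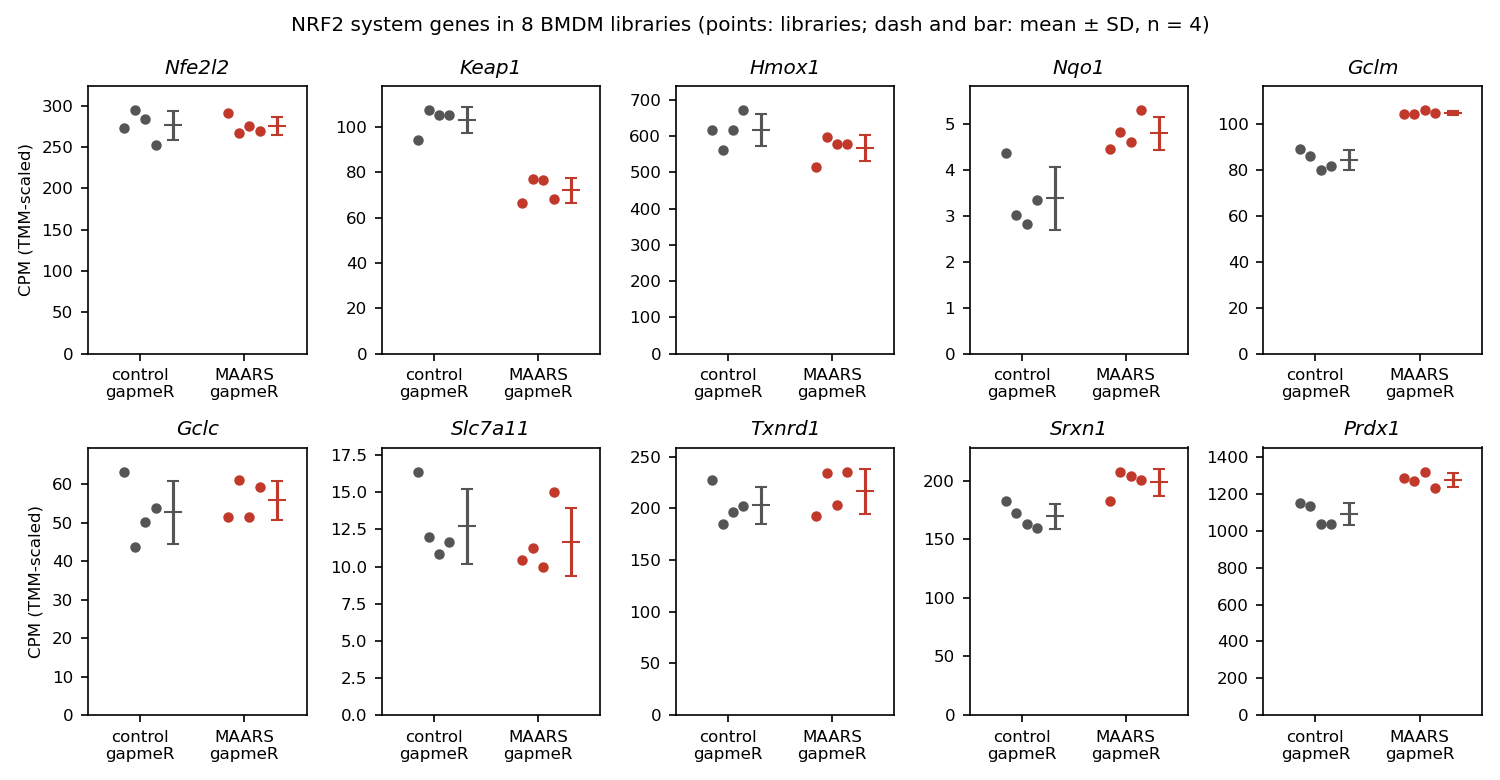
CPM after TMM scaling of the 10 NRF2 genes (vertical axes from 0, 1 panel a gene) in 4 control gapmeR libraries (grey points) and 4 MAARS gapmeR libraries (red points), with the mean and SD of each group as a dash and bar. Keap1 lay lower in every MAARS library (66.4 to 77.0 CPM) than in every control library (94.4 to 107 CPM), Gclm and Prdx1 lay higher in every MAARS library, and Nfe2l2 overlapped between groups.

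Of the factor and its adaptor, the adaptor alone was called. Nfe2l2 (ENSMUSG00000015839, minus strand, chr2:75675513-75704641) had 273, 294, 283 and 253 CPM in control replicates 2, 5, 6 and 7. In MAARS replicates 9, 11, 13 and 15 it had 291, 267, 275 and 270 CPM. All MAARS values lay inside the control range. The log2 fold change was -0.00046 ± 0.05 (SE), with an interval of 2 standard errors from -0.11 to 0.11 (edgeR's quasi-likelihood test, adjusted p = 0.995). The sign of so small a value turned with the scaling chosen. The gene lies 2.53 Mb from MAARS on the same chromosome.

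Keap1 (ENSMUSG00000003308, minus strand, chr9:21229730-21239361), which targets NRF2 for degradation, was the only member called lower. Its control values were 94.4, 107, 105 and 105 CPM, and its MAARS values were 66.4, 77.0, 76.6 and 68.3 CPM. The highest MAARS library was well under the lowest control library. Keap1 fell by 30.1%, a log2 fold change of -0.52 ± 0.06 (SE, adjusted p = 6.8e-05 in edgeR), and this was the member with the smallest p. Of its exonic bases, 10.9% lie opposite exons of a gene on the other strand, and the strand setting used for counting is not given in the sources used here. Control replicate 2, at 94.4 CPM, was set apart from the other three control libraries toward the MAARS values.

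Among enzymes of haem and quinone metabolism, the quinone reductase Nqo1 rose and the inducible haem oxygenase Hmox1 did not pass the test. Hmox1 (ENSMUSG00000005413, plus strand, chr8:75093621-75100589), which opens the haem ring and releases iron, was at 618, 562, 617 and 671 CPM in control and 515, 598, 578 and 579 CPM in MAARS libraries. The groups overlapped through control replicate 5. The log2 fold change was -0.12 ± 0.06 (SE, adjusted p = 0.145 in edgeR), with an interval of 2 standard errors from -0.25 to 0.01. Without control replicate 5, Hmox1 was called lower (log2 fold change -0.17, adjusted p = 0.0456 in edgeR).

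Nqo1 (ENSMUSG00000003849, minus strand, chr8:107388225-107403206), which reduces quinones by 2 electrons and so keeps them from redox cycling, was scarce in these macrophages, with 52 to 85 counts in control and 94 to 122 counts in MAARS libraries. These were 4.35, 3.01, 2.81 and 3.34 CPM against 4.45, 4.81, 4.595 and 5.29 CPM. The groups did not overlap, but the lowest MAARS library stood barely over control replicate 2. Nqo1 was 41.6% higher (log2 fold change 0.50 ± 0.15 SE, adjusted p = 0.0198 in edgeR), the largest rise and, with Slc7a11, the widest error of the set. The call was lost without control replicate 5 (adjusted p = 0.0522), without control replicate 6 (0.0596) and without MAARS replicate 15 (0.0540), with log2 fold changes of 0.44, 0.42 and 0.45, and was kept in the other 12 alternative fits.

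In glutathione synthesis, Gclm rose among the subunits of glutamate-cysteine ligase, the rate-limiting enzyme, and Gclc did not pass the test, while a difference between them was not shown. Gclm (ENSMUSG00000028124, plus strand, chr3:122245557-122270732), the modifier subunit that raises the activity of the enzyme, was at 89.3, 86.3, 80.2 and 81.7 CPM in control libraries. In MAARS libraries it was at 105, 104, 106 and 105 CPM. Every MAARS library was above every control library and the MAARS values were the tightest of any member, with a coefficient of variation of 0.767%, against a median of 7.65% over all genes in that group. Gclm rose by 24.4% (log2 fold change 0.31 ± 0.05 SE, adjusted p = 0.00021 in edgeR). Of its exonic bases, 3.88% overlap another gene on the same strand and 4.71% one on the other.

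Gclc (ENSMUSG00000032350, plus strand, chr9:77754535-77794485), the catalytic subunit, was at 63.3, 43.8, 50.1 and 53.8 CPM in control and 51.5, 61.0, 51.6 and 59.4 CPM in MAARS libraries. The groups overlapped fully, with both the highest and the lowest value in control libraries. Its log2 fold change was 0.08 ± 0.10 (SE, adjusted p = 0.526 in edgeR), with an interval of 2 standard errors from -0.12 to 0.29 that holds values close to that of Gclm. The estimate was -0.0019 without control replicate 5.

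Slc7a11 (ENSMUSG00000027737, minus strand, chr3:49892526-50443614), the light chain of the transporter that brings in cystine for glutathione, was at 16.4, 12.0, 10.8 and 11.6 CPM in control and 10.5, 11.2, 9.97 and 14.996 CPM in MAARS libraries. One library of each group, control replicate 2 and MAARS replicate 15, stood above the rest of its group. The log2 fold change was -0.12 ± 0.16 (SE, adjusted p = 0.545 in edgeR), with an interval of 2 standard errors from -0.43 to 0.19, and it was 0.03 without control replicate 2.

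The thioredoxin branch held 3 members. Txnrd1 (ENSMUSG00000020250, plus strand, chr10:82833951-82897712), the cytosolic selenoenzyme that reduces thioredoxin with NADPH, was at 228, 185, 197 and 202 CPM in control and 193, 234, 203 and 235 CPM in MAARS libraries. The MAARS libraries fell into a lower and a higher pair, and the lower pair lay within the control range. The log2 fold change was 0.09 ± 0.08 (SE, adjusted p = 0.351 in edgeR), with an interval of 2 standard errors from -0.06 to 0.25.

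Srxn1 (ENSMUSG00000032802, plus strand, chr2:152105516-152111376), the sulfiredoxin that restores overoxidised peroxiredoxins, was at 183, 172, 163 and 160 CPM in control and 182, 208, 204 and 201 CPM in MAARS libraries. The groups overlapped only because MAARS replicate 9 fell just under control replicate 2. Srxn1 rose by 17.2% (log2 fold change 0.23 ± 0.06 SE, adjusted p = 0.0069 in edgeR).

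Prdx1 (ENSMUSG00000028691, plus strand, chr4:116685544-116700822), the abundant cytosolic peroxiredoxin that removes hydrogen peroxide and is itself a substrate of sulfiredoxin, was at 1149.8, 1135, 1041 and 1039 CPM in control libraries. In MAARS libraries it was at 1288, 1269.9, 1322 and 1232 CPM. The groups did not overlap. Prdx1 rose by 17.1% (log2 fold change 0.23 ± 0.05 SE, adjusted p = 0.0041 in edgeR), nearly the same relative difference as Srxn1. RefSeq lists a pseudogene of Prdx1, and how reads matching several places were counted is not given in the sources used here. Across the set, control replicate 2 was the highest control library for 7 of 10 members, and MAARS replicate 9 was the lowest MAARS library for 6 of 10.

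**Figure D2:**
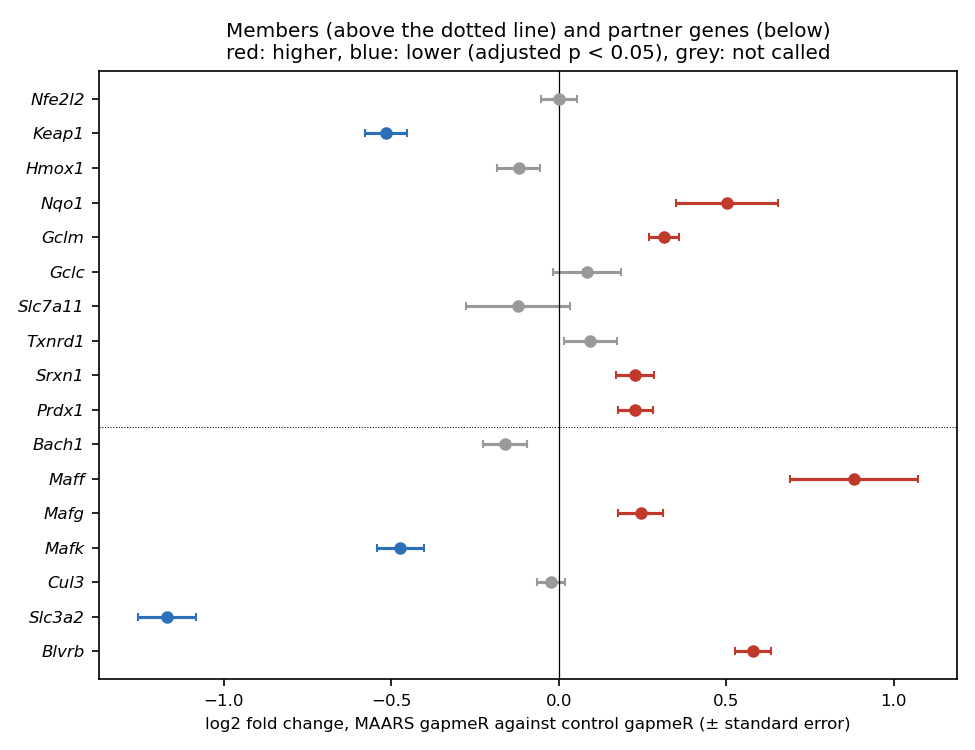
Log2 fold change (MAARS gapmeR against control gapmeR, horizontal axis) with its standard error for the 10 members, above the dotted line, and 7 partner genes, below it, from edgeR. Red points were called higher, blue points lower and grey points neither, and Keap1 at -0.52 lies opposite to Nqo1 at 0.50 and Gclm at 0.31, with Slc3a2 at -1.17 farthest from 0.

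Pairs of genes with related roles were compared as ratios of raw counts within each library, which no scaling between libraries can change. The test was a two-sided exact permutation test over libraries, with adjustment over 5 ratios. The smallest p this test can give is 0.0286 before adjustment. The ratios that reached it share an adjusted p of 0.0476, a value that depends on how many of the 5 ratios reached it. Each of them holds a gene called in the same libraries (Keap1, Slc3a2 or Blvrb), so these p-values are no separate support for those calls. The Nfe2l2 to Keap1 ratio was 2.89, 2.74, 2.69 and 2.40 in control and 4.39, 3.47, 3.59 and 3.95 in MAARS libraries. Every MAARS ratio was above every control ratio, and the geometric mean was 1.43-fold higher (exact permutation test, adjusted p = 0.0476). The Slc7a11 to Slc3a2 ratio, light chain to heavy chain of the cystine transporter, went from 0.0107 ± 0.0032 to 0.0215 ± 0.0031 (SD, n = 4 each) and was 2.05-fold higher (exact permutation test, adjusted p = 0.0476). Here the light chain did not pass the test and the heavy chain Slc3a2, which also serves other amino acid transporters, fell from 1217 ± 163 to 541 ± 31.0 CPM (SD, n = 4 each).

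The Hmox1 to Blvrb ratio compared the inducible haem oxygenase with biliverdin reductase B. It was 5.59, 4.77, 5.67 and 6.15 in control and 2.86, 3.90, 3.52 and 3.41 in MAARS libraries, 0.616-fold as high, with no overlap (exact permutation test, adjusted p = 0.0476). Blvrb rose from 112 ± 4.23 to 167 ± 11.01 CPM (SD, n = 4 each). The other biliverdin reductase, Blvra, was at 112 ± 8.95 CPM in control and 121 ± 6.39 CPM in MAARS libraries (SD, n = 4 each). Blvra was not called (log2 fold change 0.11, adjusted p = 0.180 in edgeR). The Gclc to Gclm ratio was 0.625 ± 0.0856 in control and 0.532 ± 0.050 in MAARS libraries (SD, n = 4 each), with overlapping values (exact permutation test, p = 0.114 before and after adjustment), so that a different response of the 2 subunits was not shown. The Nfe2l2 to Bach1 ratio, activator to competing repressor, was 1.43 ± 0.13 in control and 1.598 ± 0.05 in MAARS libraries (SD, n = 4 each, exact permutation test, adjusted p = 0.0714).

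**Figure D3:**
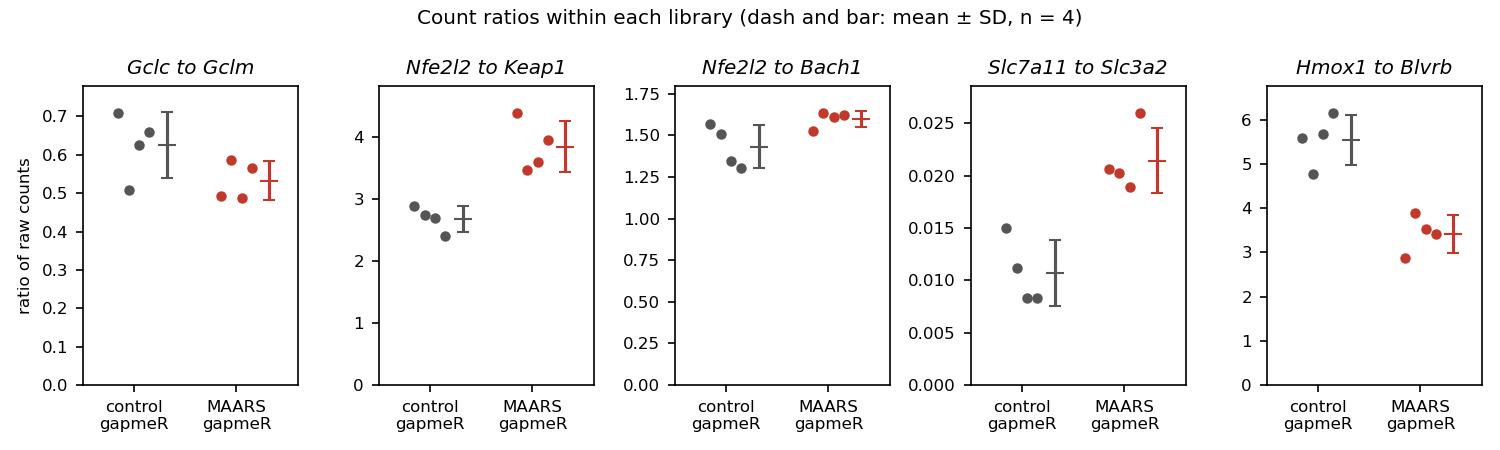
Ratio of raw counts of 5 gene pairs (vertical axes from 0, no unit) in each control (grey) and MAARS (red) gapmeR library, with the mean and SD (n = 4) as a dash and bar. The ratios of Nfe2l2 to Keap1 and of Slc7a11 to Slc3a2 were higher, and that of Hmox1 to Blvrb lower, in all 4 MAARS libraries than in any control library, whereas the other 2 ratios overlapped.

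Levels were compared between genes as CPM per kb of exon, a measure of abundance and not of change. In control libraries Prdx1 (359 ± 19.6) and Hmox1 (352 ± 25.3; SD, n = 4) were the highest, and their ranges overlapped. Both were above 99% of the genes tested, at 99.16% and 99.12%. Nfe2l2 (72.7 ± 4.63), Srxn1 (60.1 ± 3.70), Txnrd1 (28.6 ± 2.53) and Keap1 (22.0 ± 1.26) followed in separate ranges. Gclc (14.0 ± 2.17) and Gclm (13.4 ± 0.667) were not separated from each other, and Nqo1 (2.17 ± 0.441) and Slc7a11 (0.912 ± 0.180) were the lowest, above 31.6% and 19.58% of the genes tested.

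In MAARS libraries Prdx1 (419.9 ± 12.3 CPM per kb) was separate from Hmox1 (324 ± 20.7), Nfe2l2 (72.6 ± 2.87) was no longer separate from Srxn1 (70.4 ± 3.96), and Gclm (16.7 ± 0.128) stood above Keap1 (15.4 ± 1.17) and Gclc (14.8 ± 1.34), which overlapped. With the longest transcript as length, the order in control libraries was the same and Nfe2l2 was at 111 CPM per kb.

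The wider pathway was followed in 6 lists of other genes, which hold 135 genes, 123 of them tested. The 20 tested genes of NRF2 control include ones that favour NRF2 and ones that oppose it, so their counts give no direction for NRF2. Of these genes, 4 were higher (20.0%, beside 21.3% of all genes) and 9 lower (45.0%, beside 24.0% of all genes). The median log2 fold change of the list was -0.14. With upper-quartile factors the number lower was 6, while the number called lower among all genes went from 3137 to 2379. The small MAF partners, which NRF2 needs to bind DNA, were split. Mafk fell from 56.6 ± 4.35 to 40.8 ± 2.97 CPM, Mafg rose from 107 ± 4.38 to 126 ± 12.3 CPM, and Maff, at a much lower level, rose from 1.25 ± 0.226 to 2.30 ± 0.191 CPM (SD, n = 4 each, adjusted p = 0.00026, 0.0109 and 0.0032 in edgeR). Their log2 fold changes were -0.47, 0.24 and 0.88.

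Other called genes of NRF2 control included Sqstm1 (p62), an autophagy receptor that binds KEAP1 away from NRF2. Sqstm1 fell from 1049.8 ± 19.1 to 803 ± 25.0 CPM, with 17.3% of its exons opposite another gene. Fbxw11, a ubiquitin ligase adaptor of the KEAP1-independent route, fell (log2 fold change -0.28). The other adaptor of that route, Btrc, was called higher (log2 fold change 0.19, adjusted p = 0.0331 in edgeR). Bach2, a relative of Bach1 near the limit of detection at 0.805 CPM in control, rose (log2 fold change 0.96). Cul3, the scaffold that KEAP1 uses, had a log2 fold change of -0.02 ± 0.04 (SE, adjusted p = 0.657 in edgeR). Rbx1, another subunit of that ligase, was called lower (log2 fold change -0.23, adjusted p = 0.0014 in edgeR). Bach1 was at 193 ± 14.996 CPM in control and 173 ± 12.5 CPM in MAARS libraries and missed the threshold (log2 fold change -0.16, adjusted p = 0.0649 in edgeR).

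Of 37 tested glutathione genes, 14 were higher (37.8%, beside 21.3% of all genes) and 5 lower (13.5%, beside 24.0%), with a median log2 fold change of 0.22. The list holds genes that make, use, export and degrade glutathione, so these counts give no direction for its level. Gsr, which returns oxidised glutathione to its reduced form with NADPH, rose from 78.3 ± 1.75 to 112 ± 6.06 CPM. Abcc1, which exports glutathione conjugates, and Glo1, which uses glutathione to clear methylglyoxal, also rose (log2 fold changes 0.57 and 0.38). The strongest falls of this list were in Slc3a2 (log2 fold change -1.17), in the glutaredoxin Glrx, which removes glutathione from protein thiols and fell from 105 ± 15.3 to 46.5 ± 4.61 CPM, and in Ggct, which degrades gamma-glutamyl peptides (-0.81).

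Of 24 tested genes for thioredoxin and peroxide removal, 11 were higher (45.8%, beside 21.3% of all genes) and 4 lower (16.7%, beside 24.0%), with a median log2 fold change of 0.12. Catalase (Cat) rose from 235 ± 27.6 to 364 ± 23.7 CPM and Sesn1, a sestrin, from 181 ± 22.2 to 299 ± 35.7 CPM. Txnip, an inhibitor of thioredoxin, rose too (log2 fold change 0.60), with 19.4% of its exons opposite another gene. It is among the 11 higher genes, so that count gives no single direction for the function. The methionine sulfoxide reductase Msrb1 fell from 336 ± 14.1 to 219 ± 6.34 CPM, and the mitochondrial superoxide dismutase Sod2 from 78.0 ± 2.78 to 56.0 ± 1.98 CPM (SD, n = 4 each). Prdx5 fell (log2 fold change -0.24) where Prdx1 rose, and 19.1% of its exons lie opposite another gene.

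Of 12 tested genes for NADPH supply, 6 were higher (50%, beside 21.3% of all genes) and 1 lower (8.33%, beside 24.0%), with a median log2 fold change of 0.20. With upper-quartile factors the number higher was 9, while the number called higher among all genes went from 2782 to 3622. The isocitrate dehydrogenases Idh1 and Idh2, cytosolic and mitochondrial sources of NADPH, rose by 51.8% and 48.5%, and the NAD kinase Nadk was the gene that fell (log2 fold change -0.27). The mitochondrial transhydrogenase Nnt rose as well (0.71), and 47.5% of its exons overlap another gene on the same strand.

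Of 19 tested genes for haem, iron and detoxification, 10 were higher (52.6%, beside 21.3% of all genes) and 3 lower (15.8%, beside 24.0%), with a median log2 fold change of 0.24. Ephx1, the microsomal epoxide hydrolase, rose from 22.8 ± 4.43 to 46.7 ± 3.96 CPM, a log2 fold change of 1.03, and the conjugate exporter Abcc3 rose from 164 ± 12.1 to 250.04 ± 10.0 CPM. The genes that fell were Hmox2, the constitutive haem oxygenase, Osgin1 and the ferritin heavy chain Fth1, with log2 fold changes of -0.37, -0.55 and -0.19. Of the exons of Hmox2, 40.2% lie opposite another gene. Fth1 was abundant, at 8640 ± 275 CPM in control and 7557 ± 94.7 CPM in MAARS libraries. The ferritin light chain Ftl1 went the other way, from 8264 ± 888 to 9486 ± 135 CPM, close to the threshold (adjusted p = 0.0489 in edgeR). Of its exonic bases, 26.5% lie opposite another gene and 8.13% overlap one on the same strand.

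For oxidant production, 0 of 11 tested genes were higher (beside 21.3% of all genes) and 7 lower (63.6%, beside 24.0%) in edgeR. The median log2 fold change of this list was -0.31. Levels of oxidants were not measured here. At an unadjusted p of 0.05 the number higher was also 0, as it was in DESeq2 and limma-voom. The NADPH oxidase of phagocytes makes superoxide, and the components named by smallest p were Ncf4, which fell from 174 ± 7.89 to 114 ± 6.36 CPM, the GTPase Rac2, which fell from 421 ± 22.0 to 308 ± 3.84 CPM, and the membrane subunit Cyba, which fell from 832 ± 55.0 to 624 ± 22.4 CPM (SD, n = 4 each). Their adjusted p-values in edgeR were 8.4e-06, 2.3e-05 and 0.00013. The number of listed genes that were not tested for lack of counts was 7.

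**Figure D4:**
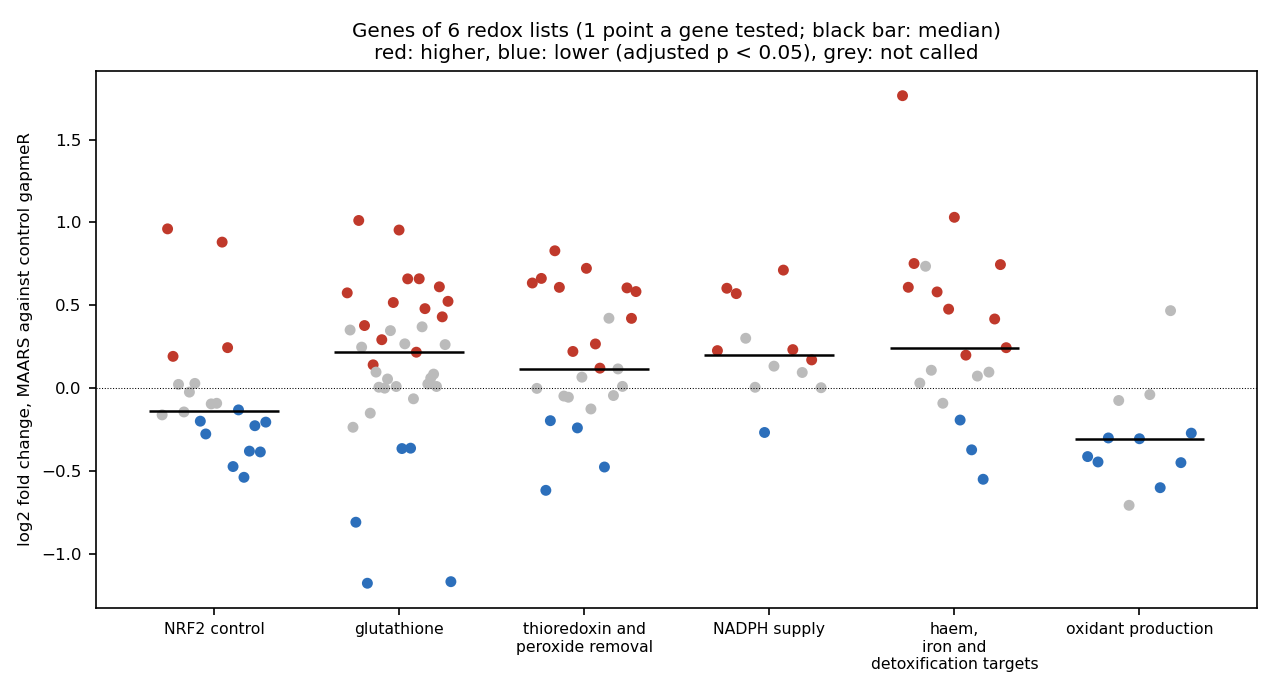
Log2 fold change (MAARS gapmeR against control gapmeR, vertical axis) of each tested gene in 6 lists of redox genes, the 10 members left out, with the list's median as a black bar. Red points were called higher and blue points lower in edgeR, and the medians of the lists run from -0.31 for oxidant production to 0.24 for haem, iron and detoxification targets.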

How the data were processed

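RNA-Seq of ribodepleted total RNA was analysed for 8 BMDM libraries. Per the submitters' processing notes and the study's methods, the authors trimmed the reads (Trimmomatic 0.36), aligned them to GRCm38 with Ensembl transcripts by STAR 2.5.2b and counted them per gene with featureCounts of Subread 1.5.2. What the authors deposited is a table of raw counts, without normalization, with 49315 gene rows. Strand and multi-mapping settings are not given in the sources used here. Groups were taken from the labels, and 0 per-sample columns were left unused.

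The filterByExpr function (minimum count 10 and minimum total 15) kept 13051 genes. TMM factors, glmQLFit and glmQLFTest of edgeR 4.0.16 (R 4.3.3) were applied to all 8 libraries without covariates, with Benjamini-Hochberg adjustment over all genes tested and a threshold of 0.05. CPM values were TMM-scaled. Library totals were 19287279 to 24541205 counts. Within groups, the chi-square between libraries was 4.02 to 14.1 per gene, so libraries differed by more than counting error and none was deposited more than once. GENCODE M21 gave symbols, positions and exon lengths for 99.47% of the genes. Ratios were tested by exact permutation.

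Alternatives were RLE and upper-quartile factors, DESeq2 1.42.0 (the tool the study's methods name), limma-voom (limma 3.58.1), no filter, a mean count of at least 10, and each library left out. Thinning all libraries to the smallest total was added after seeing the data. Members and lists, which hold the genes of the ratios, were chosen with earlier results of these data known. Named were all members, their ratio partners, the small MAFs and Cul3, and up to 3 called genes a list and direction, taken in order of p. Blvra, Ftl1 and Btrc were added as counterparts of Blvrb, Fth1 and Fbxw11, and Rbx1 was added beside Cul3. These added genes are outside the counts of named genes. The result of 1 marker gene is not reported here.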

Additional observations from a re-analysis of the deposited data

Results flagged for a closer look

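In each of 98 groups of 4 libraries, the gap between an extreme library and its nearest neighbour was divided by the range of the group and compared with Dixon's critical value, which chance alone passes in about 1 in 20 groups. Of the 98 groups, 5 passed. Among the members it was Keap1 in control libraries, where replicate 2 took 0.838 of the range as the lowest. The others were Cat (0.846) and Idh1 (0.883) in MAARS libraries, where replicate 9 was the highest for both, Sod2 (0.888), where MAARS replicate 11 was the highest, and Cyba (0.937), where MAARS replicate 13 was the highest. Keap1, Cat, Idh1, Sod2 and Cyba were called in the same direction in all 15 alternative fits, including those without these libraries.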

How the results depend on the processing

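Of 36 called genes among the 43 named, 35 were called in all 15 alternatives, and Nqo1 was the exception. Most of these genes were named for a small p in these same data, so this stability was partly set by the choice. Of the 5 called members, 4 kept the call (Keap1, Gclm, Srxn1 and Prdx1). Thinning the libraries to 1 total, an alternative chosen after seeing the data, ended no call of a member. Leaving out 1 library at a time gave 3 to 4 members higher and 1 to 2 lower, the second being Hmox1 without control replicate 5. In the same fits the glutathione list had 9 to 14 genes higher (9 without control replicate 6 or 7). The thioredoxin list had 7 to 9 (7 without control replicate 6, MAARS replicate 11 or MAARS replicate 13). Fewer libraries were fitted there, and calls over all genes were fewer too. These fits called 2323 to 2700 of all genes higher and 2774 to 3032 lower, against 2782 and 3137 in the main fit. The sign of Nfe2l2 turned, with no call, at log2 fold changes of 0.0065 (RLE factors), 0.0626 (upper-quartile factors), 0.0021 (DESeq2) and 0.00097 (limma-voom), and ran from -0.0417 to 0.0259 with 1 library left out. Cul3 turned to 0.0385 with upper-quartile factors. With 1 library left out, Gclc ran from -0.0019 (without control replicate 5) to 0.187 and Slc7a11 from -0.267 to 0.0288 (without control replicate 2). Bach1 was called lower without a filter (adjusted p = 0.0482), without control replicate 2 (0.0191) and without MAARS replicate 9 (0.0184). The cause of these changes was not tested. No paired analysis was possible because the groups share no replicate number. Among the members, counts per library were lowest for Nqo1 (52 to 122), and intervals cover the spread between these libraries only.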
